A study of Mus musculus with 6 samples.

Results

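The transcripts described here are those of the mitochondrial ribosomal protein genes in mouse embryonic fibroblasts (MEFs). They were chosen by name, as the protein-coding genes whose GRCm38 symbol begins with Mrpl or Mrps followed by a digit. That rule found 78 genes among the 55487 in the tables, 49 named Mrpl and 29 named Mrps, and all 78 passed the filter on low counts. The 6 RNA-seq libraries comprised 3 of knockout (KO) and 3 of wild-type (WT) MEFs, with 1 library of each genotype at passages 2, 3 and 4. At every passage the cells are lifted off the dish and seeded into new dishes. The cells of both genotypes were untreated, and the labels do not name the deleted gene, the strain or the age of the embryos. The number of embryos or cultures is not given either, so 3 libraries of a genotype may follow 1 culture through its passages, and every p-value here measures only the spread between these libraries.

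Mitochondria hold their own ribosome, the mitoribosome, which translates the few messenger RNAs of the mitochondrial genome into core subunits of the respiratory chain. Its RNAs are transcribed inside the organelle, while all of its proteins are encoded by nuclear genes, made in the cytosol and imported. The large subunit (Mrpl proteins) joins amino acids and threads the new chain towards the inner membrane, and the small subunit (Mrps proteins) reads the messenger RNA. Some of these proteins have bacterial counterparts, and others were added in the mitochondrial lineage.

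Library totals ran from 24853121 to 67760880 expected counts, and the 78 genes held between 0.130% and 0.184% of a library's counts. The genotype follows the titles, although a second label calls the later KO libraries, those of passages 3 and 4, wild type. Xist, the RNA of the inactive X chromosome, had 417 to 567 CPM (read counts divided by library sizes that TMM has adjusted) in the KO libraries and 0.118 to 0.301 CPM in the WT libraries, while the Y-linked Ddx3y had 0 to 0.731 CPM in KO and 73.4 to 88.0 CPM in WT. Genotype and sex of the cells therefore cannot be told apart. Fibroblast markers were abundant in all 6 libraries, with summed levels of 21573 to 25682 CPM in KO and 37965 to 49622 CPM in WT. Of the 11, 5 fell in KO (1.55% of all tested genes did), or 6 with passage as a block (6.37% of all tested genes did). Macrophage markers summed to 47.1 to 306 CPM in KO and 64.1 to 426 CPM in WT, and all 14 that could be tested fell with passage (3.48% of all tested genes did). In KO against WT, all 14 had a log2 change below 0, with a median of -0.65 (48.4% of all tested genes were above 0). Of these, 0 were called lower, or 4 with the block, beside the same shares of 1.55% and 6.37%. With passage, 6 of 7 adipocyte, 5 of 9 endothelial, 3 of 7 epithelial, 1 of 3 skeletal muscle and 2 of 6 neural and glial markers fell too. Endothelial markers summed to 111 to 178 CPM in KO and 235 to 269 CPM in WT. Most did not follow that sum, since 7 of the 9 tested had a log2 change above 0 in KO against WT. One marker count, 1 of the 9, was called lower. Adipocyte markers summed to 154 to 305 CPM in KO and 293 to 540 CPM in WT, with 3 of the 7 tested above 0, 4 below and 0 called. The muscle factors Myf5 and Myf6 had 0 counts. In bulk RNA, fewer cells of a type and less RNA per cell cannot be told apart, and the part of these shifts in the values below was not tested.

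As a group, the mitochondrial ribosomal protein transcripts were most abundant in the KO library of passage 2, and by passage 4 most were lower in KO than in WT (in CPM). The median log2 difference of the 78 genes between the KO and the WT library of the same passage was 0.49 at passage 2, 0.23 at passage 3 and -0.12 at passage 4, where the medians over all 16603 tested genes lay between -0.03 and 0.00. At passage 2, 77 of the 78 genes were higher in KO, against 65 at passage 3 and 28 at passage 4, and the shares of all tested genes higher in KO were 46.9%, 48.5% and 49.5%. Of the 78 genes, 28 (35.9%) were higher in KO at all 3 passages, 36 at 2 passages, 14 at 1 passage and 0 at none. The shares of all tested genes were 24.1%, 24.0%, 24.4% and 27.5% in the same order.

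The courses over the passages were opposite in KO and WT. In KO, 75 of the 78 genes had a lower value at passage 4 than at passage 2 (51.9% of all tested genes were higher), with a median difference of -0.30, and 59 were lower at each successive passage, a pattern held by 26.4% of all tested genes. In WT, 67 of the 78 were higher at passage 4 than at passage 2 (50.2% of all tested genes were), with a median difference of 0.22, and 36 were higher at each successive passage, against 19.7% of all tested genes. Both patterns together were seen in 26 of the 78 genes and in 2.97% of all tested genes. The KO library of passage 2 was the highest of the 6 for 58 genes, and the WT library of passage 2 was the lowest for 38.

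**Figure D1:**
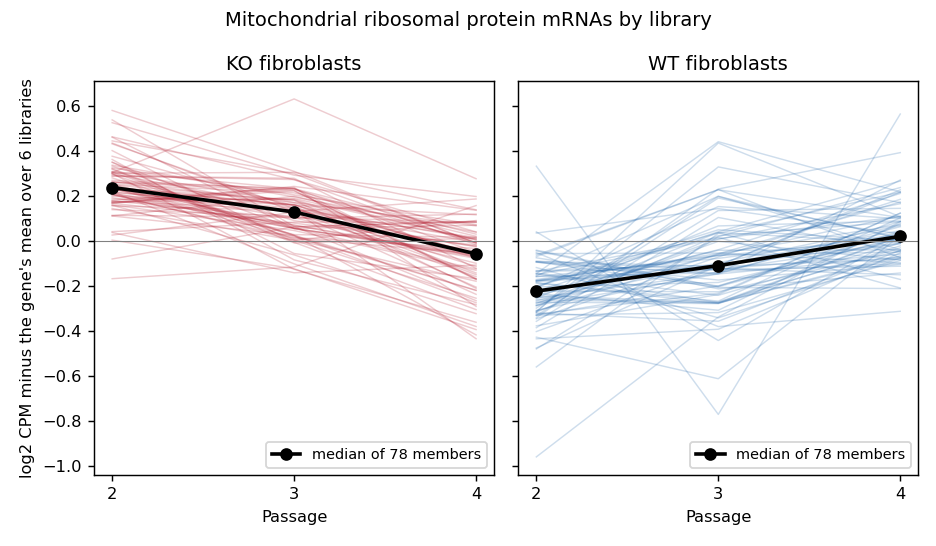
Each thin line is 1 of the 78 genes, drawn as its log2 CPM minus its mean over the 6 libraries (vertical axis) against passage (horizontal axis), with KO on the left and WT on the right, and the black line is the median of the 78. From passage 2 to passage 4 the KO medians are 0.24, 0.13 and -0.06, and the WT medians are -0.22, -0.11 and 0.02.

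Per length, the summed KO levels were higher at every passage, on a scale where the median of all genes also moved. Summed over the 78 genes, TPM (a level that RSEM corrects for transcript length and scales to a fixed total) was 3506, 3439 and 3119 in KO at passages 2, 3 and 4, against 2687, 2607 and 2971 in WT. All 3 KO sums thus lay above all 3 WT sums. In CPM, which is not corrected for length, the sums were 1815, 1667 and 1469 in KO, against 1301, 1424 and 1542 in WT, and there the groups overlapped, since the KO sum of passage 4 was below the WT sum of the same passage. On the log2(TPM + 1) scale the median over all tested genes itself lay at 0.08 in KO against WT, with 0.31 for the 78 genes, or 0.23 relative to all genes. The median difference between the genotypes in change per passage was 0.15 over all tested genes on that scale and -0.14 for the 78. On that scale the median of all genes thus moved towards KO with passage, while 62 of the 78 moved the other way. Whether the higher KO sum of passage 4 is particular to the 78 was not tested. The cause of the difference between the units was not tested.

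The comparison of the genotypes over all 6 libraries asked which of these transcripts differed between KO and WT fibroblasts. None of the 78 genes was called, meaning an adjusted p under 0.05 in edgeR's quasi-likelihood test over all tested genes, which called 2.48% of all genes (0.934% higher and 1.55% lower in KO). At an unadjusted p under 0.05, 16 of the 78 were higher in KO and 0 were lower. Of all 16603 genes, 3543 passed that bound in either direction, so the share of the 78 that passed was no larger than that of all genes. DESeq2 called 9 of the 78, all higher in KO (Mrpl38, Mrps30, Mrps18b, Mrpl19, Mrps22, Mrpl3, Mrpl12, Mrps6 and Mrpl50), where it called 4.48% of all genes higher, and limma-voom called 0. With passage as a block, edgeR called 2, Mrps18b and Mrps22, where 4.69% of all genes were called higher and 6.37% lower. The log2 changes had a median of 0.20, quartiles of 0.11 and 0.28, and were positive for 68 of the 78, while the median of all genes was -0.01 and 48.4% were positive. Without both libraries of passage 2 the median was 0.08, with 49 positive, and without both libraries of passage 4 it was 0.35, with 75 positive. In 25 of the 78 genes all 3 KO libraries lay above all 3 WT libraries, which was so for 13.1% of all tested genes, and in 0 did all 3 lie below, against 14.1%. In simulated data of this design, 0% of 1.5-fold and 46.5% of 2-fold genotype changes were called, and no gene of the 78 had a fitted change of 2-fold.

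**Figure D2:**
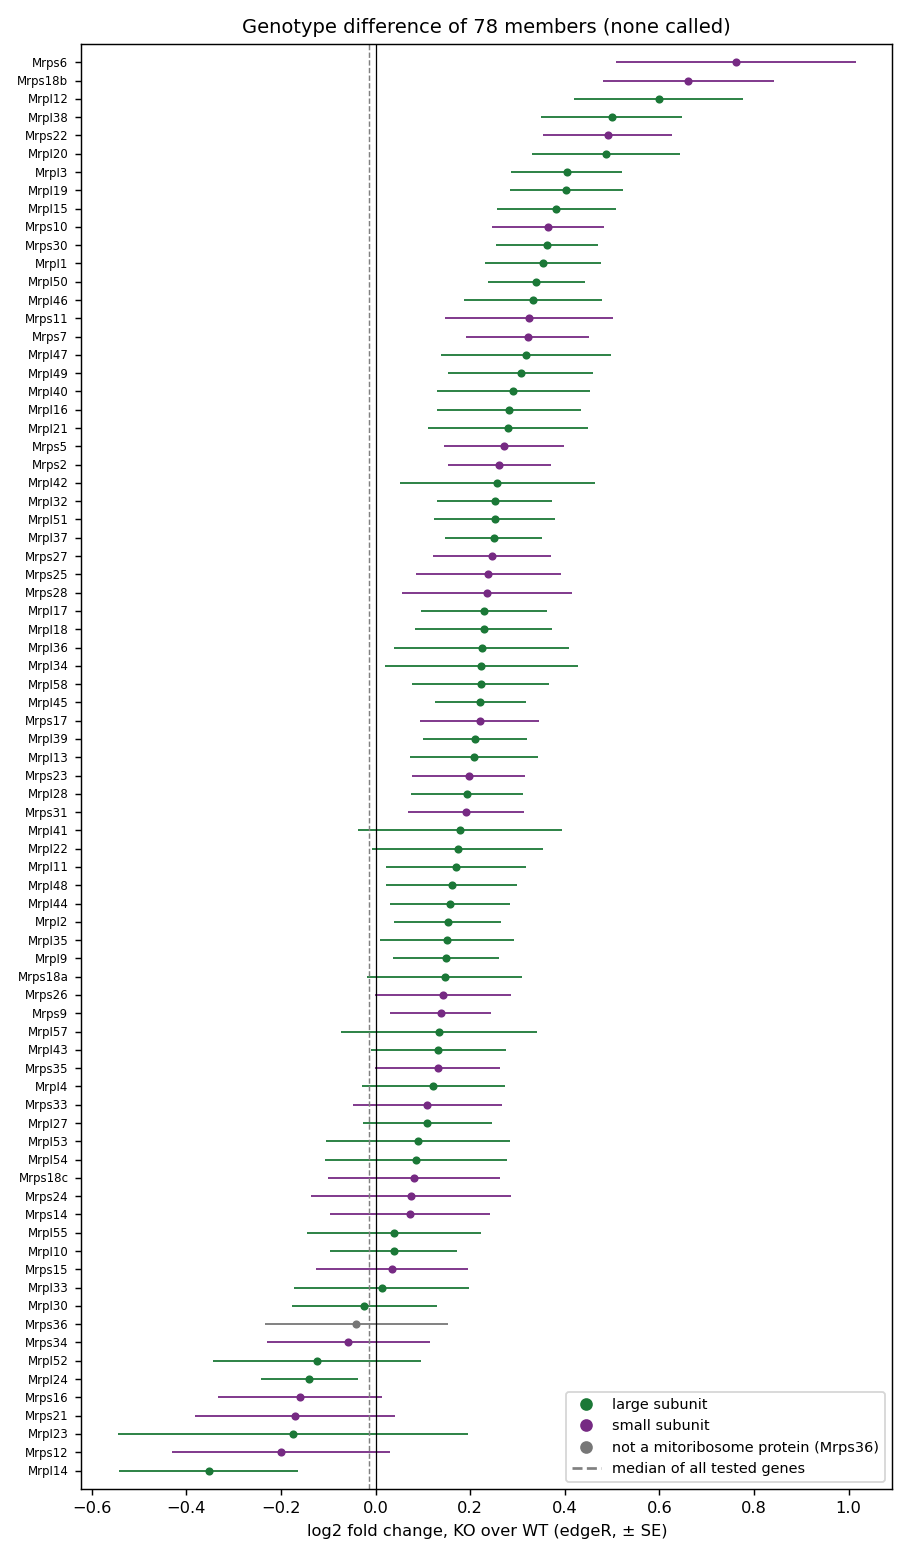
The log2 fold change of KO over WT (horizontal axis, edgeR, bars are ± SE, 3 libraries a genotype) is drawn for each of the 78 genes, coloured by subunit, with a dashed line at the median of all tested genes (-0.01). The values run from 0.76 for Mrps6 to -0.35 for Mrpl14, and 68 of the 78 lie above 0.

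Among small-subunit genes the highest changes belonged to Mrps6, Mrps18b and Mrps22. Mrps6 (ENSMUSG00000039680, GRCm38 chromosome 16, 92058270 to 92112227), the counterpart of bacterial protein S6, had 36.1, 45.3 and 35.5 CPM in KO at passages 2, 3 and 4, against 15.0, 23.1 and 31.0 CPM in WT. All 3 KO libraries were above all 3 WT libraries, and the WT values climbed towards the KO level (log2 0.76 ± 0.25 SE, edgeR adjusted p = 0.150). Its exons overlap those of Slc5a3 and Gm49711 on the same strand, and 16.6% of the 64-base words of its transcripts also occur in Gm49711, so its count is uncertain.

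Mrps18b (ENSMUSG00000024436, chromosome 17, 35910379 to 35916389) encodes 1 of 3 mammalian relatives of bacterial protein S18. It had 41.0, 34.9 and 32.7 CPM in KO, against 21.2, 18.6 and 29.0 CPM in WT. Every KO value was above every WT value, and the gap was narrowest at passage 4 (log2 0.66 ± 0.18 SE, edgeR adjusted p = 0.103). With the passage block it passed the test (log2 0.68, adjusted p = 0.0443). The 2 relatives had smaller differences and overlapping groups. Mrps18a, which sits in the large subunit, had 19.7, 17.5 and 15.8 CPM in KO, against 13.1, 15.9 and 19.0 CPM in WT (log2 0.15, adjusted p = 0.660), and Mrps18c had 15.5, 12.7 and 10.8 CPM in KO, against 10.3, 12.6 and 14.0 CPM in WT (log2 0.08, adjusted p = 0.845). Both were above their WT values at passages 2 and 3 and below them at passage 4.

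Mrps22 (ENSMUSG00000032459, chromosome 9, 98588730 to 98601660), a protein without a bacterial counterpart, had 16.2, 16.2 and 14.4 CPM in KO, against 12.7, 10.1 and 10.6 CPM in WT. The groups did not overlap, and it was higher in KO at every passage, with log2 differences of 0.35, 0.68 and 0.45. Its overall change was 0.49 ± 0.14 SE (edgeR adjusted p = 0.105), and with the passage block it passed the test (log2 0.50, adjusted p = 0.0481). No 64-base word of its transcripts occurs in another gene.

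Among large-subunit genes, Mrpl12 (ENSMUSG00000039640, chromosome 11, 120484613 to 120489065), a protein of the flexible stalk that recruits translation factors, had 41.1, 34.1 and 27.3 CPM in KO, against 20.3, 20.9 and 26.5 CPM in WT. The KO values descended and the WT values ascended until they nearly met at passage 4, without overlap (log2 0.60 ± 0.18 SE, edgeR adjusted p = 0.119). Mrpl10, which anchors the stalk, had 34.8, 38.5 and 39.1 CPM in KO, against 31.1, 35.8 and 42.6 CPM in WT, overlapping groups that both ended above where they began. Mrpl38, a mitochondria-specific protein, had 26.6, 24.0 and 19.4 CPM in KO, against 15.5, 15.7 and 18.4 CPM in WT, without overlap (log2 0.50, adjusted p = 0.120). Mrpl20, whose bacterial counterpart binds ribosomal RNA during assembly, had 32.6, 28.6 and 23.4 CPM in KO, against 18.9, 18.5 and 23.0 CPM in WT. Its groups were separate as well, by a narrow margin at passage 4 (log2 0.49, adjusted p = 0.138).

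Genes chosen for roles at the exit tunnel and the inner membrane, or in RNA handling and ribosome rescue, had smaller changes than the 6 highest genes. Of those below, Mrps30, Mrpl45 and Mrpl58 lay above the median of the 78 (0.20) and Mrpl44 below it. Mrpl45, which holds the mitoribosome to the inner membrane, had 38.1, 37.1 and 34.1 CPM in KO, against 31.6, 30.9 and 31.2 CPM in WT, without overlap (log2 0.22 ± 0.10 SE, edgeR adjusted p = 0.235). Mrpl44, a relative of ribonuclease III, had 12.4, 11.3 and 11.99 CPM in KO, against 10.7, 9.79 and 11.5 CPM in WT, with groups that overlapped (log2 0.16, adjusted p = 0.524). Mrpl58, which releases chains from stalled mitoribosomes, had 17.2, 16.8 and 12.8 CPM in KO, against 13.5, 13.0 and 13.7 CPM in WT. Its KO value of passage 4 was the lowest of all 6 (log2 0.22, adjusted p = 0.428). Mrps30, a large-subunit protein despite its name, had 35.4, 37.3 and 34.6 CPM in KO, against 26.6, 26.1 and 30.8 CPM in WT, with no overlap and no steady course in either genotype (log2 0.36 ± 0.11 SE, adjusted p = 0.120).

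At the other end, the lowest change was that of Mrpl14 (ENSMUSG00000023939, chromosome 17, 45686322 to 45698495), a protein at the interface between the subunits. It had 10.1, 9.24 and 7.66 CPM in KO, against 9.10, 13.7 and 11.7 CPM in WT, and was higher in KO at passage 2 only (log2 -0.35 ± 0.19 SE, edgeR adjusted p = 0.334). Mrps12, a protein of the decoding centre, had 9.77, 9.20 and 6.77 CPM in KO, against 7.14, 10.6 and 11.9 CPM in WT (log2 -0.20, adjusted p = 0.669). Mrps21 had 21.3, 18.3 and 15.2 CPM in KO, against 15.3, 25.8 and 20.5 CPM in WT (log2 -0.17, adjusted p = 0.694). For both, the KO library was above the WT library at passage 2 and below it at passages 3 and 4. Mrps16 (log2 -0.16, adjusted p = 0.645), Mrpl24 (log2 -0.14, adjusted p = 0.478) and Mrpl23 (log2 -0.17, adjusted p = 0.835) also had negative values that did not pass the test, as did Mrpl52, Mrps34, Mrps36 and Mrpl30. Mrps36, which is now assigned to the ketoglutarate dehydrogenase complex and was counted with neither subunit, had 14.5, 13.9 and 9.32 CPM in KO, against 12.1, 14.8 and 11.96 CPM in WT (log2 -0.04, adjusted p = 0.933).

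By subunit, the 51 large-subunit genes had a median log2 change of 0.21 in KO against WT, with 46 positive, and the 26 small-subunit genes had 0.19, with 22 positive. All 3 KO libraries lay above all 3 WT libraries in 14 of the 51 and 11 of the 26 (13.1% of all tested genes). All 3 lay below in 0 of either class (14.1% of all tested genes). The 46 genes with a bacterial counterpart had a median of 0.20, and the 29 without one had 0.21. No difference between these classes was tested.

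A further 5 proteins of the mitoribosome carry other names, and their median differences were 0.47, 0.14 and -0.14 at passages 2, 3 and 4, in the same order as those of the 78. Ptcd3, a small-subunit protein with RNA-binding repeats, had 63.1, 60.9 and 60.0 CPM in KO, against 44.5, 32.3 and 48.1 CPM in WT, without overlap. Its log2 change was 0.56 ± 0.15 SE (edgeR adjusted p = 0.0980), and it passed the test with the passage block (0.58, adjusted p = 0.0325). The other 4 had changes of 0.11 (Dap3), -0.02 (Aurkaip1), 0.22 (Chchd1) and 0.18 (Gadd45gip1), none of them called.

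Promoter sequences of the genes at both ends of the range are shown so that the genes with the highest and the lowest values can be compared. They come from RefSeq on GRCm38.p6, run from 150 bases before to 30 bases after the RefSeq start in the direction of transcription, and carry in capitals the matches to 6 motifs that were searched on both strands. The first 3 sequences are those of the 3 small-subunit genes with the highest changes, the next is the large-subunit gene with the highest change, and the last is the gene with the lowest.
Mrps6 (chr16:92058186-92058365, plus strand): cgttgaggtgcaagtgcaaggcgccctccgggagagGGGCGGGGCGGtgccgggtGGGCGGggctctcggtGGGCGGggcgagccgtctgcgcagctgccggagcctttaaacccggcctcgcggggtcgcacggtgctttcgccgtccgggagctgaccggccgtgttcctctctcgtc
Mrps18b (chr17:35916411-35916590, minus strand): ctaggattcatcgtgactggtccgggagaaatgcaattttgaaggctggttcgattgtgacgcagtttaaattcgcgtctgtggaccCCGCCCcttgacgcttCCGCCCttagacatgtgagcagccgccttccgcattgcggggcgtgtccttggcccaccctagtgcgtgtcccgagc
Mrps22 (chr9:98601650-98601829, minus strand): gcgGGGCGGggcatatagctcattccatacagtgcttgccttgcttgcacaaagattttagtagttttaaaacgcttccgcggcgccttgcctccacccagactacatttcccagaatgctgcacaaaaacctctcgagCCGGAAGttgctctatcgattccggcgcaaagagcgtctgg
Mrpl12 (chr11:120484487-120484666, plus strand): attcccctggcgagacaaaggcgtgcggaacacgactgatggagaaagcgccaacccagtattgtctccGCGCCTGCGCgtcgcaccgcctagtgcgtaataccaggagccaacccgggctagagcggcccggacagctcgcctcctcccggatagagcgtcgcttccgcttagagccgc
Mrpl14 (chr17:45686199-45686378, plus strand): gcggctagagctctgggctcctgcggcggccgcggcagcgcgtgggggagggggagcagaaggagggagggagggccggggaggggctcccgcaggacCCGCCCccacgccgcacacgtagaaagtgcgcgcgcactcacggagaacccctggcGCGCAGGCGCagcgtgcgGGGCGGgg

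The capitals in Mrpl12 and the second capital stretch in Mrpl14 spell the NRF1 motif (GCGC, any base, then TGCGC, or its complement), which NRF1, a regulator of nuclear genes for mitochondrial proteins, is known to bind. The second capital stretch in Mrps22 spells the ETS motif CCGGAAG, bound by factors such as GABP, and the others spell GGGCGG or its complement CCGCCC, the box of SP factors. In these 5 windows no matches to different motifs overlapped, and the first pair of boxes in Mrps6 shared a base. Over windows of 300 bases (250 before to 50 after the start), 69 of the 78 genes matched a promoter in the RefSeq table, with a median GC content of 58.3%, against 52.7% for all 27025 promoters. The NRF1 motif was present in 18.8% of the 69, the ETS motif in 36.2% and the YY1 motif (AAGATGGC) in 17.4%. The shares were 4.78%, 9.12% and 2.88% of all promoters and 9.99%, 17.4% and 4.51% of the 10725 promoters of tested protein-coding genes. At least 1 of these 3 motifs was present in 60.9% of the 69 and in 28.5% of the promoters of tested protein-coding genes. The E-box CACGTG was found in 7.25%, CCAAT in 39.1% and GGGCGG in 49.3% of the 69, where promoters of tested protein-coding genes had 10.02%, 38.7% and 64.01%. The median change in KO against WT was 0.15 for the 13 genes with the NRF1 motif and 0.22 for the 56 without it. It was 0.15 for the 25 with the ETS motif and 0.22 for the 44 without it, and 0.25 for the 12 with the YY1 motif and 0.19 for the 57 without it. A match is a description of the letters in the window and not of binding.

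The tests of passage asked whether the transcripts changed with time in culture, and whether they did so differently in KO and WT. With both genotypes together, 0 of the 78 genes were called for a change per passage by edgeR, where 6.25% of all genes were called (2.78% higher and 3.48% lower). At an unadjusted p under 0.05 there was 1 of the 78 (Mrpl10, log2 change of 0.16 per passage), beside 3516 of all 16603 genes. DESeq2 and limma-voom also called 0. The median change was -0.03 per passage, with 28 genes above 0 and 50 below, and its sign turned on single libraries. The median was 0.06 without the KO library of passage 2 and 0.07 without that of passage 4, and it was -0.10 without the WT library of passage 2 (67 genes below 0) and -0.10 without that of passage 4 (72 below 0). The highest value was that of Mrps6 (0.26 per passage, adjusted p = 0.304) and the lowest that of Mrpl42 (-0.20 per passage, adjusted p = 0.323). Mrpl42 had 23.8, 17.1 and 13.6 CPM in KO, against 14.2, 16.8 and 14.5 CPM in WT, so that the KO library of passage 2 stood apart from the other 5.

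The difference between the genotypes in change per passage was negative for 75 of the 78 genes (46.7% of all tested genes were below 0), with a median of -0.31 on the log2 scale per passage, against 0.02 over all genes. None of the 78 was called by edgeR, which called 0% of all genes in this test, and DESeq2 called 83 genes but 0 of the 78. At an unadjusted p under 0.05, 34 of the 78 (all lower) and 1137 of all 16603 genes differed, and with 1 library left out the 34 became 1 (without KO passage 4) to 48 (without WT passage 3). In simulated data of this design, edgeR called 3% of 2-fold differences per passage. The spread put into those data came from a fit of genotype alone, so it holds passage differences that this test's model takes out. The 3% may therefore be too low for this test. Mrps12 had the lowest value, -0.63 ± 0.17 SE (adjusted p = 0.574), and Mrpl12 had -0.49 ± 0.12 SE (adjusted p = 0.574), as its converging values above show. The 3 genes not below 0 were Mrps22 (0.05), Mrpl23 (0.06) and Mrpl50, whose value was below 0.01 and which had 28.0, 26.5 and 25.7 CPM in KO, against 22.3, 20.6 and 20.5 CPM in WT. These 3 were named after their values were seen.

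Part of this pattern went with transcript length. The 78 transcripts are short, with a median effective length of 865 bases, against 2226 bases for all tested genes, and the KO to WT difference of short transcripts moved with passage among all tested genes too. Among the other tested genes of 500 to 750 bases, the median log2 difference was 0.27 at passage 2, -0.09 at passage 3 and -0.17 at passage 4, and the 25 mitochondrial ribosomal protein genes of that length had 0.53, 0.14 and -0.17. Among those of 1000 to 1500 bases, the other genes had 0.09, 0.04 and -0.02, and the 23 genes of the family had 0.49, 0.31 and 0.04. The 5 genes of the family under 500 bases had a median KO against WT change of -0.12, and the other tested genes of that length had -0.09. Across the 78 genes, the difference in change per passage rank-correlated with length at a Spearman rho of 0.70, and across all tested genes at 0.28. For the KO against WT change, rho was 0.41 across the 78 genes and -0.08 across all tested genes. These points are genes that share the same 6 libraries, so the values are a description. Set against the other genes of their own length class, the 78 had median differences of 0.30 at passage 2, 0.23 at passage 3 and 0.01 at passage 4, with 74, 66 and 40 of them above their class. With each library's trend on length removed, the median difference in change per passage was -0.16 in place of -0.31, with 72 of the 78 below 0. At an unadjusted p under 0.05 in edgeR, 4 of the 78 and 772 of all 16603 genes then differed, which are similar shares. The median KO against WT change was 0.18 with the trend removed. What gives rise to the dependence on length was not tested.

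**Figure D3:**
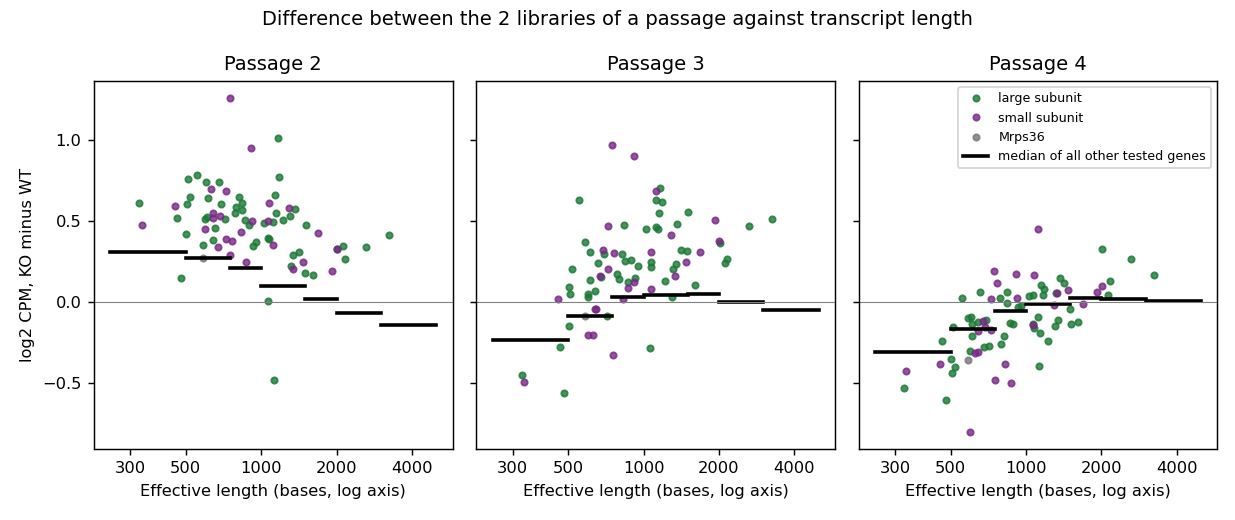
The log2 CPM difference, KO minus WT, of each of the 78 genes (vertical axis) is plotted against effective length in bases (log axis) for passages 2, 3 and 4, and black lines are the medians of all other tested genes in each length class. At passage 2 nearly all points lie above the lines, and at passage 4 they scatter around them (median distance from the class 0.30 and 0.01).

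Other gene groups of the same organelle and pathway were set beside the 78, each with its tested members. Nuclear genes of oxidative phosphorylation, the respiratory chain and ATP synthase subunits, had medians of 0.43, -0.10 and -0.25 at passages 2, 3 and 4 over 80 genes, and the 83 cytosolic ribosomal protein genes had 0.39, -0.32 and -0.49. Both groups thus shared the higher KO value at passage 2 and had a negative median at passages 3 and 4. Their transcripts are shorter still, with median effective lengths of 565 and 514 bases. By edgeR 0 of the 80 and 0 of the 83 were called between the genotypes. With the passage block, 1 of the 80 was called lower in KO (Ndufv3, log2 -0.56, adjusted p = 0.0366) and 2 of the 83 higher (Rpl29, 0.63, adjusted p = 0.0440, and Rps7, 0.58, adjusted p = 0.0450). Over all tested genes the block called 6.37% lower and 4.69% higher, larger shares than in these groups. Rpl29 and Rps7 share 30.1% and 27.2% of their 64-base words with other genes, so their counts are uncertain. The differences between these groups and the 78 genes were not tested.

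**Figure D4:**
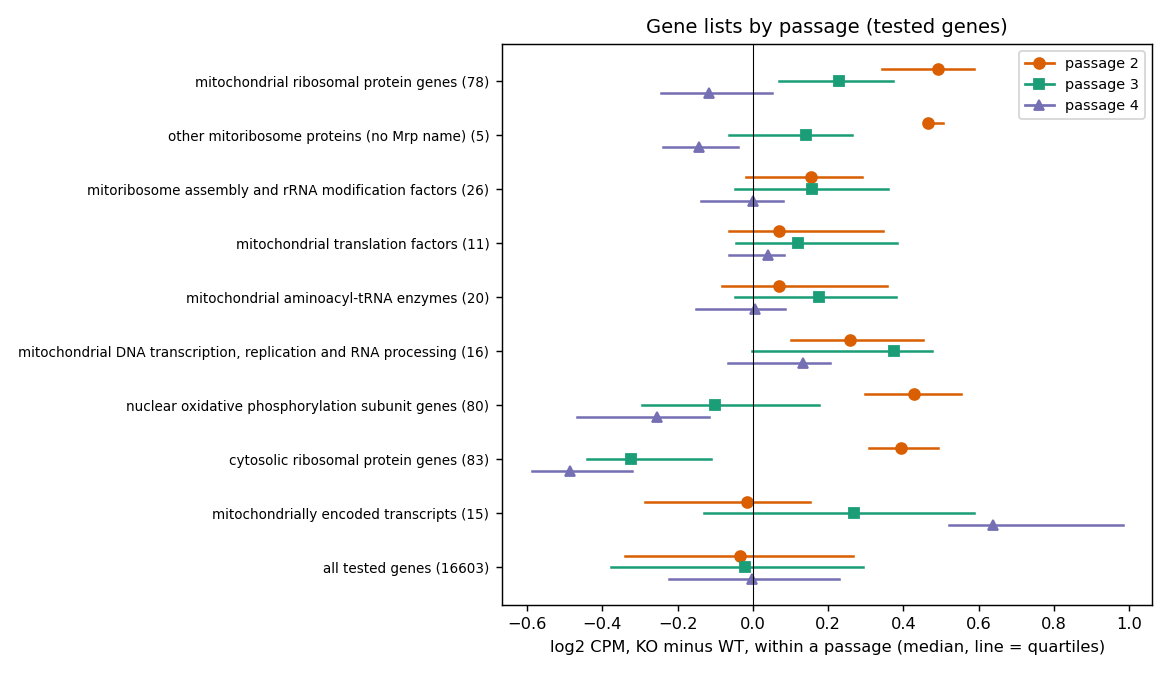
Markers are the median log2 CPM difference, KO minus WT, within each passage (horizontal axis) for 9 gene groups and all tested genes, with lines over the quartiles and the number of genes in brackets. The 78 mitochondrial ribosomal protein genes have medians of 0.49, 0.23 and -0.12, and the mitochondrially encoded transcripts run the other way, with -0.02, 0.27 and 0.64.

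The factors that build and serve the mitoribosome were set beside it in the same way. Of 26 assembly and ribosomal RNA modification factors, 11 translation factors and 20 aminoacyl-tRNA enzymes of mitochondria, 0 were called between KO and WT, and their median log2 changes were 0.08, 0.08 and 0.06. Genes for transcription, replication and RNA processing of mitochondrial DNA had a median of 0.24, with 14 of 16 above 0 and 0 called. With the passage block, 2 of these 16, 1 of the 26, 0 of the 11 and 1 of the 20 passed the test, as did 1 of 6 genes for docking to the inner membrane, all higher in KO, where 4.69% of all genes were called higher. They were the RNA-stability factor Lrpprc (log2 0.59, adjusted p = 0.0423), the tRNA-processing subunit Trmt10c (0.51, adjusted p = 0.0343), the methionyl-tRNA synthetase Mars2 (0.56, adjusted p = 0.0331), the assembly factor Fastkd2 (0.56, adjusted p = 0.0338) and the prohibitin Phb (0.65, adjusted p = 0.0287), named for that result. Phb shares 29.2% of its 64-base words with other genes, so its count is uncertain.

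Among regulators of mitochondrial genes, 0 of 9 were called between genotypes, and Ppargc1b, a coactivator of this programme, fell with passage (log2 -0.75 per passage, edgeR adjusted p = 0.0369). It had 3.498, 2.22 and 0.922 CPM in KO, against 1.94, 1.38 and 0.911 CPM in WT. Its relative Ppargc1a was scarce, with 0.613, 0.574 and 0.477 CPM in KO, against 0.922, 1.002 and 0.579 CPM in WT (log2 -0.60, adjusted p = 0.335). Myc, a growth regulator that acts on ribosome genes, had 107.8, 90.9 and 90.7 CPM in KO, against 68.8, 45.9 and 87.7 CPM in WT, with all KO above all WT values (log2 0.52, adjusted p = 0.236). Tfam, which packages mitochondrial DNA, had a log2 change of 0.08 (adjusted p = 0.741), and the mitochondrial RNA polymerase Polrmt one of 0.24 (adjusted p = 0.30).

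For the products of the mitochondrial genome itself the order of the passages was the opposite one. The 15 mitochondrially encoded transcripts had medians of -0.02, 0.27 and 0.64 at passages 2, 3 and 4, with 0 called by edgeR between genotypes and 0 of the 15 below 0 in the difference in change per passage. With the passage block 2 of the 15 were called higher in KO, mt-Nd1 (log2 0.49, adjusted p = 0.0427) and mt-Cytb (0.47, adjusted p = 0.0318). Over all tested genes, 4.69% were called higher with that block. The mitoribosome's own RNAs shared a course over the passages, but their order between KO and WT was not the same at every passage. The small-subunit RNA mt-Rnr1 had 171.5, 197.3 and 137.5 CPM in KO, against 158.8, 237.4 and 110.8 CPM in WT. The large-subunit RNA mt-Rnr2 had 186.8, 241.8 and 154.2 CPM in KO, against 241.2, 281.8 and 99.0 CPM in WT. Both RNAs were highest at passage 3 and lowest at passage 4 in each genotype, and the groups overlapped.

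Levels of the 78 transcripts, compared per length, spanned from 124 TPM for Mrpl30 to 2.71 TPM for Mrpl23 over the 6 libraries, with a median of 34.7 TPM and quartiles of 23.7 and 45.8 TPM. Mrpl30 averaged 127.5 ± 11.4 TPM in KO and 121.1 ± 7.68 TPM in WT (SD, n = 3 each), and was followed by Mrpl17 with 122.4 ± 9.78 TPM in KO and 97.3 ± 10.4 TPM in WT. Mrpl52 (109 TPM), Mrps21 (98.4 TPM) and Mrpl33 (90.4 TPM) came next. At the low end stood Mrpl44 (14.8 TPM), Mrpl46 (14.4 TPM), Mrps31 (11.9 TPM), Mrpl1 (9.41 TPM) and Mrpl23. The order is that of the mean over both genotypes. In WT alone, Mrpl52 (109.9 TPM) and Mrps21 (99.4 TPM) lay above Mrpl17. Most neighbours did not differ beyond their spread, since 4 neighbouring pairs were more than 1 SD apart, Mrpl30 and Mrpl17 at the top and the 3 pairs from Mrpl46 down to Mrpl23. Mrpl23, a protein of the exit tunnel, had 1.37, 1.42 and 1.72 CPM in KO, against 1.94, 0.902 and 2.28 CPM in WT. Its processed pseudogene Mrpl23-ps1 had 6.23 to 10.3 CPM in KO and 9.27 to 10.995 CPM in WT and holds 9.48% of its 64-base words. How the reads of this pair were divided is uncertain.

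**Figure D5:**
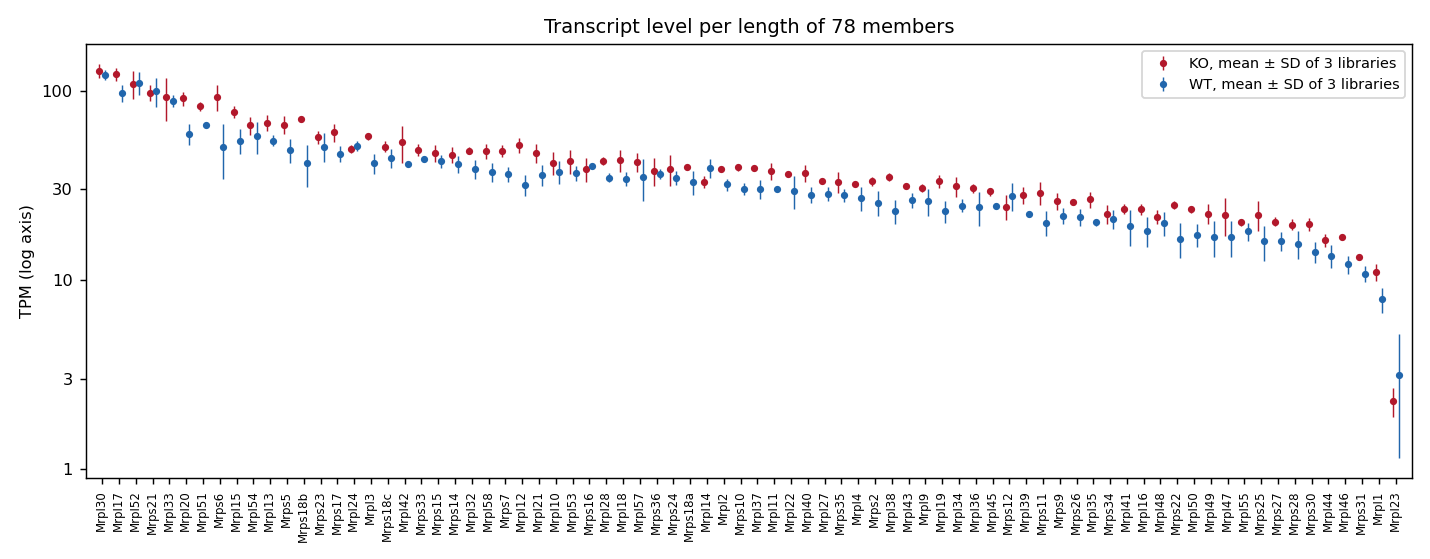
Points are the mean TPM of each of the 78 genes on a log axis, ordered by the mean over all 6 libraries, with KO (left of each pair) and WT drawn separately and bars of ± SD over 3 libraries. Levels descend smoothly from Mrpl30 at 124 TPM until the last genes, where Mrpl23 stands apart at 2.71 TPM.

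Most of these counts rest on sequence of their own, with some exceptions. For 38 of the 78 genes no 64-base word of their transcripts occurs in another gene. Mrpl53 shares 80.2% of its words with Gm42688 and Mrps34 shares 33.0% with Nme3, so both counts are uncertain. Mrpl53 had 15.5, 16.1 and 11.2 CPM in KO, against 10.9, 15.6 and 13.8 CPM in WT. Exons of 28 genes overlap a gene on the opposite strand and those of 8 a gene on the same strand, 33 in all. Whether reads were assigned by strand is not given in the sources used here, so reads of overlapping genes may be mixed. Mrpl46 and Mrps11 are such a pair within the family, and both had positive log2 changes that did not pass the test (0.33 and 0.32).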

How the data were processed

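RNA of 6 MEF libraries was analysed from the deposited gene tables. Per the submitters' processing notes, Trimmomatic 0.39 and RSEM were used with mouse build GRCm38. The RSEM version, aligner settings, annotation release and strand handling were not given in the sources used here. Each deposited table holds RSEM expected counts (reads that fit several genes are divided by a model, and 12.05% to 15.8% of values were not whole), TPM and FPKM as the authors' RSEM run scaled them (FPKM not used here), and effective lengths.

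Symbols, biotypes and coordinates came from GENCODE M21 of GRCm38 (55227 of 55487 genes, 99.5%). Expected counts were rounded, scaled by TMM and tested with edgeR 4.0.16 (robust quasi-likelihood, 2-sided) in R 4.3.3, after a filter with a minimum count of 10 that left 16603 genes. Benjamini-Hochberg adjustment ran over all of them, with a threshold of 0.05. The fits were genotype alone (4 residual degrees of freedom), a slope per passage with genotype (3), and their interaction (2). Log2 CPM used a prior count of 2, and 3 counts, the most that a count of 0 allows, equal 0.0443 to 0.121 CPM at these depths (24853121 to 67760880 counts), which covers counting error only. Values within a passage, levels in TPM, lengths and motifs were described without a test.

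Passages pair the libraries. They are shared labels, and deviations from the genotype means correlated between the KO and WT libraries of passages 2, 3 and 4 (r = 0.488, 0.137 and 0.416 across genes). The fit with a passage block is printed where it changes a call among the 78 genes or in the mitochondrial, ribosomal, fibroblast and macrophage lists. Alternatives included RLE and upper-quartile scaling, DESeq2 1.42.0, limma 3.58.1 (voom and log2 TPM with pseudocounts of 1 and 0.1), other filters, effective lengths as offsets, left-out libraries and the genotype tag. Removal of lowess trends on length and GC was added after seeing the data. The tests were tried on simulated counts with 200 changed genes, whose spread came from the fit of genotype alone in all 3 tests.

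The gene family, lists and motifs were chosen with earlier results of these data known. Genes named in the text are the called ones, the 6 highest and 6 lowest in genotype and passage change, the 5 highest and 5 lowest by TPM, genes of chosen roles, those sharing 25% or more of their 64-base words with another gene, and a few named after their values were seen. Symbols Mtrfr and Prorp had no match and were not analysed here.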

Additional observations from a re-analysis of the deposited data

How the results depend on the processing

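The median log2 change of the 78 genes in KO against WT stayed positive in every alternative, between 0.08 (without both libraries of passage 2) and 0.35 (without both libraries of passage 4), and lay between 0.12 and 0.27 with 1 library left out. The number of the 78 called between genotypes was 9 by DESeq2, 1 with no filter on low counts, 1 on log2(TPM + 1), 2 on log2(TPM + 0.1), 2 without both libraries of passage 4, 2 with the replicate block (passage) and 5 with the block after removal of the length trend. All of these were higher in KO. Over all tested genes, 744, 377, 219, 239, 162, 778 and 1104 were called higher in the same order. The genes tested numbered 16603, but 31578 with no filter and 17211 without both libraries of passage 4. Of the 78, 0 to 1 were called with 1 library left out, the 1 being Mrps18b without the WT library of passage 4. The passage block changed no other call among the 78. With no filter, 1 gene (Mrps6) was called per passage and 2 (Mrpl52 and Mrps6) in the difference between slopes. The cause of these shifts was not tested.

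The median difference between the slopes was -0.14 on log2(TPM + 1) and -0.14 on log2(TPM + 0.1), scales on which the median of all genes shifted by 0.15 and 0.19, so that the 78 genes lay at -0.29 and -0.33 relative to it. It was -0.16 with the length trend and -0.15 with length and GC trends removed, and -0.33 to -0.24 with 1 library left out, the smaller size without the KO library of passage 4. The median change per passage was -0.15 within KO alone and 0.11 within WT alone, and with 1 library left out it ranged from -0.10 (without WT passage 4) to 0.07 (without KO passage 4), against -0.03 with all 6.

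All genes called between genotypes numbered 412, against 1661 by DESeq2, 846 with no filter, 1835 with the block, 59 and 2 without both libraries of passage 2 or 3, and 0 by the genotype tag. They numbered 2401 with the block after removal of the length trend. With 1 library left out they numbered 38 (without KO passage 3) to 847 (without WT passage 4). Those called per passage numbered 1038, against 1709 by DESeq2, 2443 with no filter and 278 to 1286 with 1 library left out. The slopes differed in 0 genes, against 289 with no filter.

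Single genes near 0 changed sign. In KO against WT by the genotype tag, Mrps12 had 0.10, Mrps21 0.16, Mrps16 0.25, Mrpl24 0.039 and Mrps36 0.23. Without both libraries of passage 4, Mrps12 had 0.12, Mrpl23 0.00089, Mrps16 0.0014 and Mrps36 0.11. Without both of passage 2, Mrpl23 had 0.00029, Mrps18a -0.062 and Mrps18c -0.18, and without both of passage 3 Mrps21 had 0.034. On the TPM scales Mrps36 had 0.043 and 0.044. With 1 library left out, Mrpl23 ranged from -0.48 to 0.092, Mrps21 from -0.35 to 0.035, Mrps36 from -0.15 to 0.13 and Mrps18c from -0.061 to 0.20. Per passage the ranges were -0.094 to 0.39 for Mrpl23, -0.0081 to 0.28 for Mrpl36, -0.069 to 0.31 for Mrpl41, -0.034 to 0.25 for Mrpl22 and -0.31 to 0.0047 for Mrpl33. For the difference between slopes, Mrpl44 had 0.11 and 0.12 and Mrps30 0.069 and 0.072 on the TPM scales, Mrpl58 had 0.0026 and 0.039 with length and with length and GC trends removed, and Mrpl44 ranged from -0.28 to 0.060 with 1 library left out.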
